A study of Mus musculus with 48 samples.

Results

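The cholesterol synthesis and lipoprotein genes described here are 29 mouse genes chosen by symbol, and all 29 were found among the 24421 gene entries of the 6 deposited tables. They comprise 8 genes of the mevalonate arm up to squalene, 10 enzymes from squalene to cholesterol, 4 regulators and sterol carriers, and 7 genes of lipoproteins, export and cholesterol removal. RNA sequencing covered 48 libraries from mouse brain cells sorted by fluorescence, with 3 libraries in each of 16 groups. Mice of 12 groups had the genotype Aldh1l1-GFP, a green fluorescent protein under the promoter of an astrocyte enzyme gene, and the treatment label Gq-CNO or Gq-Saline. These groups are a GFP sort labelled astrocytes and an mCh (mCherry) sort labelled neurons, each from olfactory bulb (OB), cortex (CX) and hippocampus (HP) under either treatment. Gq denotes a designer receptor coupled to Gq proteins, clozapine-N-oxide (CNO) is its ligand, and saline is the vehicle. All 12 groups carry the Gq label, and the labels do not say which cells hold the receptor. Another 2 groups are GFP-sorted astrocytes of olfactory bulb in Aldh1l1-GFP mice labelled CNO-control or untreated. The last pair held mCh sorts labelled astrocytes from the olfactory bulb of Slc22a3-FF mice, whose organic cation transporter gene Slc22a3 is floxed, labelled Gfap-Cre (Slc22a3-cKO) or Gfap-mCh (flox control). Gfap drives expression in astrocytes and also in some neural progenitors. Ages are not given in the sources used here, and no source says whether the libraries of a group are separate animals; a p-value here therefore rests on the scatter of libraries, which may be technical.

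Brain cholesterol is made within the brain, because lipoproteins of the blood do not cross the blood-brain barrier. Acetyl units are joined to mevalonate and then to squalene, and squalene is cyclised to lanosterol and trimmed to cholesterol; the transcription factor SREBP2, the product of Srebf2, drives these genes when sterols are low, and INSIG1 holds it in the endoplasmic reticulum when sterols are plentiful. Astrocytes load cholesterol onto apolipoprotein E particles through ABC transporters, and neurons take these particles up through receptors of the low-density lipoprotein receptor family and remove surplus cholesterol as 24-hydroxycholesterol. Oligodendrocytes make cholesterol for myelin, and microglia also express Apoe.

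Of the 29 genes, 23 had a promoter window in the RefSeq table (GRCm38.p6), spanning 250 bases before to 50 bases after a transcript start. The windows were searched on either strand for a sterol element, TCACNCCAC, the form bound by SREBP in classical sterol-regulated promoters, and for the CCAAT box bound by NF-Y, a factor known to act beside SREBP. The sterol element was found in 1 of the 23 genes, Hmgcs1, where TCACCCCAC began 137 bases before the start, against 1.44% of 27025 mouse genes. A CCAAT box was found in 19 of the 23 (82.6%), against 41.1% of all genes. Of the synthesis enzymes 14 of 15 (93.3%) held it, and among the other members 5 of 8 (62.5%). The motifs can overlap by at most 1 letter. Mvk held 5 CCAAT boxes, Hmgcs1 and Nsdhl 4 each, and Msmo1 and Hsd17b7 3 each. A match is a string of letters, not evidence of binding. The 250 bases before the start are shown 5′ to 3′ for 5 genes. Hmgcs1 has the only sterol element, Mvk and Idi1 follow it in the fixed order of members (Pmvk and Mvd, called between sorts in no region, are passed over), and Msmo1 and Insig1 were added after their values were seen to show a later enzyme and a regulator called in the sorts beside Hmgcs1. The fourth box of Hmgcs1 lies past the stretch shown. Capitals mark CCAAT, its reverse complement ATTGG and, in Hmgcs1, the sterol element.
Hmgcs1, chr13:119690101-119690350, plus strand: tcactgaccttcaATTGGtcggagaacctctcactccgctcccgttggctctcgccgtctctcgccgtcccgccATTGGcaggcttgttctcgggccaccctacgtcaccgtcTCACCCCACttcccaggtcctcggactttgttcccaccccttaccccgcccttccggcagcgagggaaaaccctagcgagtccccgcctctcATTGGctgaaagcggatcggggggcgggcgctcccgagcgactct
Mvk, chr5:114444019-114444268, plus strand: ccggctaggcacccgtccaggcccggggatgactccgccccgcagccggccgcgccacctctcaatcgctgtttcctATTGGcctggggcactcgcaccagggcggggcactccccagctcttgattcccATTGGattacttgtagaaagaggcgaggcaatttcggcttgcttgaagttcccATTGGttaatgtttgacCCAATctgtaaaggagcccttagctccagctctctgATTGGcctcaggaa
Idi1, chr13:8885356-8885605, plus strand: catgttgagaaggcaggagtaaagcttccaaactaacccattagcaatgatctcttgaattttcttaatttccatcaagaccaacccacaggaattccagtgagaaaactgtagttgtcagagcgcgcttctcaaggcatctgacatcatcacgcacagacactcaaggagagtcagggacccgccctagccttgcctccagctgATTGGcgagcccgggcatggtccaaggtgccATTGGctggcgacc
Msmo1, chr8:64733579-64733828, minus strand: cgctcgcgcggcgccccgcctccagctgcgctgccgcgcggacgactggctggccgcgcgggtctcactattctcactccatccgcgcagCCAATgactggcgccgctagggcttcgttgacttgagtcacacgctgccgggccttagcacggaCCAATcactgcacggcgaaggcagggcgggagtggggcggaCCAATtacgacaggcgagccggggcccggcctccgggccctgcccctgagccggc
Insig1, chr5:28071162-28071411, plus strand: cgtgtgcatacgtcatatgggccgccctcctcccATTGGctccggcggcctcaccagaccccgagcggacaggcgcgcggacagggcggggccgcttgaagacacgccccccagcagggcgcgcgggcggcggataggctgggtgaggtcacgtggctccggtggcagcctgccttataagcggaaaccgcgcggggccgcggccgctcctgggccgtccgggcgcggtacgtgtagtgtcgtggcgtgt

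Depth ranged from 228048 to 24664376 reads assigned to genes per library, and the ribosomal RNA entry Rn45s took 8.00% to 23.1% of them. Levels between tables are given as RPM, the recovered reads per 1000000 reads of the library. Low genes were measured least precisely in the cortex, where 3 libraries had under 1000000 reads. The summed level of 16 astrocyte markers was 65226 to 142780.0 RPM in the 18 GFP libraries of the Gq mice and 5939 to 26198 RPM in the 18 mCh libraries. That of 12 microglia markers was 92.3 to 3236 RPM in the GFP and 5411 to 17307 RPM in the mCh libraries, and that of 10 oligodendrocyte markers 754 to 3418 and 18351 to 60454 RPM. For 12 neuron markers the sums were 587 to 1404 RPM in the GFP sorts and 1772 to 5122 RPM in the mCh sorts. The mCh sorts labelled neurons therefore held more microglia and oligodendrocyte than neuron marker RNA, and they are called mCh sorts here. In the cortical GFP sort, Gq-Saline library 4 stood apart, with a microglia marker sum of 3236 RPM against 93.7 and 102 RPM in the other Gq-Saline libraries. It also had 10250 RPM of Malat1, against 1380 and 1272, and 656 RPM of Egr1, against 6.63 and 4.70. Snap25 had 615 RPM in it, against 88.8 and 118, and Mbp 1824 RPM, against 957 and 614. Below it is named the library rich in microglia markers. Which of these traits goes with its values of the members was not tested. In sorted bulk samples, fewer cells of a type and less RNA per cell cannot be told apart.

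Per kilobase of transcript, Apoe and Clu led the 29 genes in the GFP sorts of the Gq mice. The median over 18 libraries was 2289 RPM per kilobase for Apoe, which encodes the main apolipoprotein of the brain. It was 1791 for Clu, which encodes the lipoprotein-associated chaperone clusterin. Hmgcs1 followed at 223, and Lcat, whose product esterifies cholesterol on lipoproteins, at 109.6. Insig1, Cyp51, Msmo1, Idi1, Fdft1 and Lrp1 lay between 53.9 and 64.3 RPM per kilobase, neighbours in an order whose library ranges overlap. Abcg1 was lowest, at 0.467. In the mCh sorts the same 3 genes led per kilobase, with medians of 332 for Apoe, 253 for Clu and 83.6 for Hmgcs1, followed by the uptake receptor gene Lrp1 at 60.3 and the exporter gene Abca1 at 24.6. Abcg1 stood at 10.1 RPM per kilobase there. At the low end of the mCh sorts, Tm7sf2 had 0 reads in 8 of 18 libraries and Stard4 in 7 of 18. A count of 0 allows up to 3 reads, which is 0.291 to 13.2 RPM at the depths of these 18 libraries and covers counting error only.

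**Figure D1:**
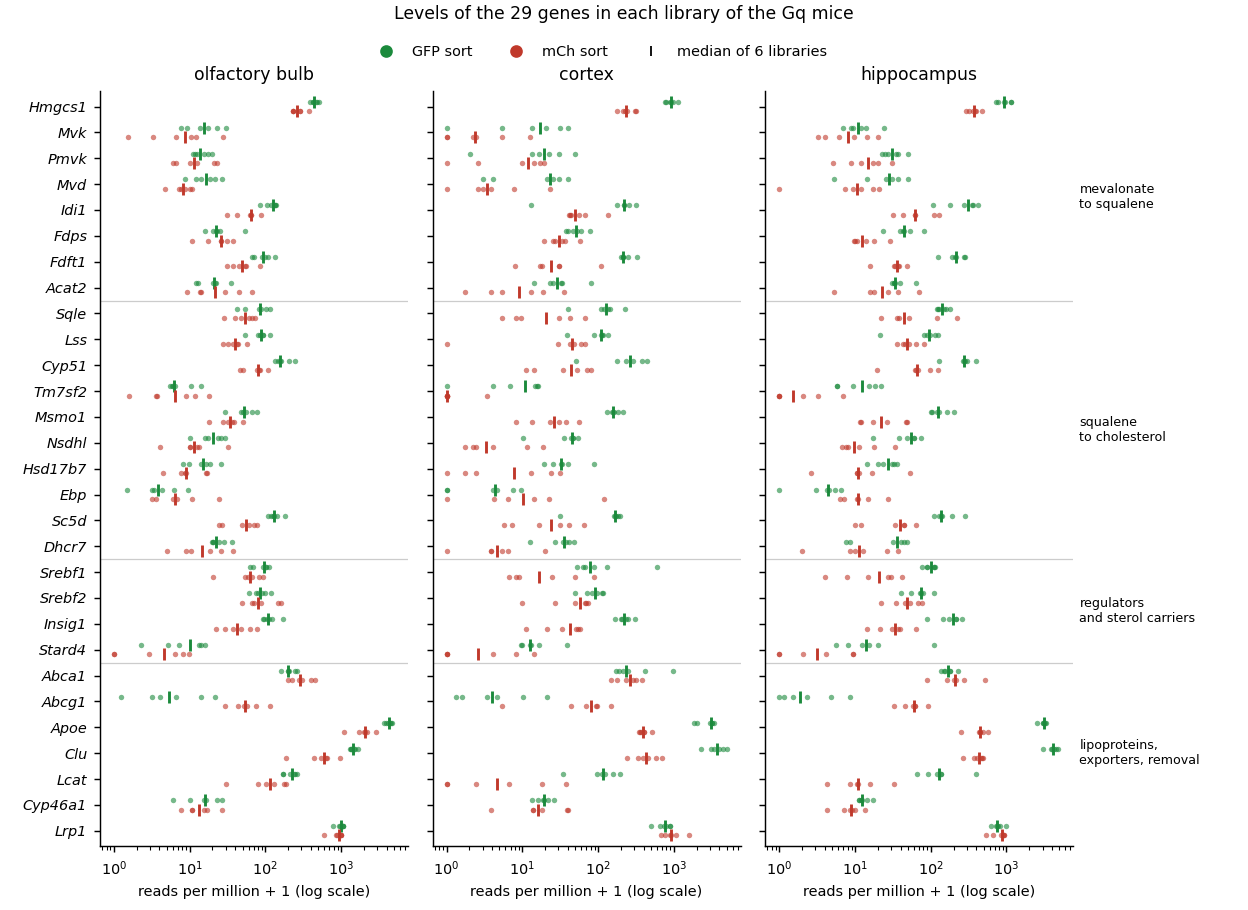
RPM plus 1 (log scale) of the 29 genes in each library of the Gq mice, in 3 regions, with 6 GFP libraries (green, upper row of each gene) and 6 mCh libraries (red, lower row), and a tick at the median. Apoe, Clu, Hmgcs1 and Insig1 have GFP libraries that all lie above the mCh libraries in the 3 regions, and Abcg1 lies lower in the GFP sorts.

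The comparison of the GFP sort with the mCh sort asks which of these genes mark the astrocyte-rich material. In the mevalonate arm, the genes called were higher in the GFP sort, and Hmgcs1, the synthase that makes the HMG-CoA precursor of mevalonate, was called in all 3 regions. Hmgcs1 (ENSMUSG00000093930.2, chromosome 13, 119690379 to 119708260, plus strand of mm10) had 385 to 507 (median 445) RPM in the 6 GFP libraries of the olfactory bulb, against 229 to 377 (median 259) in the 6 mCh libraries. Cortical GFP libraries had 755 to 1136 (median 916) RPM, against 179 to 319 (median 233) in mCh, and hippocampal GFP libraries 719 to 1148 (median 939.7), against 295 to 480.4 (median 373) in mCh. The sorts did not overlap in any region. The log2 difference was 0.73 (SE 0.174, adjusted p = 0.00152) in the olfactory bulb, 1.90 (SE 0.174, adjusted p = 3.27e-12) in the cortex and 1.34 (SE 0.174, adjusted p = 3.22e-08) in the hippocampus, with limma on log2(RPM + 1) and Benjamini-Hochberg adjustment over 11711 genes, as for every adjusted p in the comparisons of sorts and regions. A gene is said to be called at an adjusted p under 0.05.

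Fdft1, which encodes squalene synthase and commits the arm to sterols, had 199.9 to 324 (median 213) RPM in cortical GFP and 7.12 to 109.6 (median 23) in cortical mCh libraries. In the hippocampus it had 123 to 282 (median 214) RPM in GFP and 14.8 to 48.4 (median 34.5) in mCh libraries, and in the olfactory bulb 65.5 to 133 (median 93.3) and 29.8 to 84.0 (median 48.7). The sorts overlapped in the olfactory bulb alone. Its log2 difference was 0.92 (SE 0.366, adjusted p = 0.0729) in the olfactory bulb, 3.20 (SE 0.366, adjusted p = 1.03e-09) in the cortex and 2.68 (SE 0.366, adjusted p = 8.73e-08) in the hippocampus, so it was called in cortex and hippocampus. The exons of Fdft1 share 774 bases with Ctsb on the opposite strand, and the counting of strands is not given in the sources used here, so its reads are uncertain in part. Smaller overlaps on the opposite strand leave the same doubt for Hmgcs1 (557 bases), Lss (381), Idi1 (323), Cyp51 (166) and Srebf1 (109).

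Idi1, the isopentenyl diphosphate isomerase gene, was called in cortex and hippocampus, at 1.32 (SE 0.443, adjusted p = 0.0165) and 1.99 (SE 0.443, adjusted p = 0.000357). It had 107 to 422 (median 313) RPM in hippocampal GFP and 31.0 to 127 (median 60.6) in mCh libraries, which overlap at 1 GFP library. In cortex the GFP libraries spanned 12.2 to 314 (median 221) RPM, with the lowest value in the library rich in microglia markers, and the mCh libraries 40.3 to 136 (median 48.7). Without that library the cortical difference of Idi1 was 2.01 (adjusted p = 3.79e-06). Fdps, which makes farnesyl diphosphate, was called in the hippocampus alone (log2 1.66, SE 0.421, adjusted p = 0.00166). The mevalonate kinase gene Mvk (log2 2.05, SE 0.767, adjusted p = 0.0314) and Acat2, which makes acetoacetyl-CoA (log2 1.87, SE 0.579, adjusted p = 0.00906), were called in the cortex alone. Pmvk and Mvd, which encode the next kinase and the decarboxylase, were called in no region, with log2 differences of 0.30 to 1.22 and 0.99 to 1.76. Whether a difference that passed in 1 region is larger there was tested only by the contrasts between regions given further on.

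From squalene to cholesterol, Cyp51 (lanosterol demethylase) and Sc5d (lathosterol oxidase) were higher in the GFP sort in all 3 regions. Sc5d had 107 to 183 (median 127) RPM in olfactory bulb GFP libraries, against 23.4 to 75.6 (median 54.1) in mCh. The cortical values were 30.9 to 194 (median 169) in GFP and 4.82 to 65.0 (median 23.1) in mCh, and the hippocampal values 110.3 to 281 (median 137) and 9.15 to 62.4 (median 38.0). The sorts overlapped in cortex only. The log2 differences of Sc5d were 1.504 (SE 0.472, adjusted p = 0.0186) in the olfactory bulb, 2.73 (SE 0.472, adjusted p = 7.14e-06) in the cortex and 2.46 (SE 0.472, adjusted p = 4.59e-05) in the hippocampus. Cyp51 had 135 to 246 (median 156) RPM in olfactory bulb GFP libraries and 45.8 to 108 (median 79.1) in mCh. It had 49.97 to 442 (median 260.1) RPM in cortical GFP and 10.1 to 80.7 (median 43.2) in mCh libraries, and 126 to 395 (median 278) and 18.3 to 125 (median 65.3) in the hippocampus. Its sorts overlapped in cortex only, and its log2 differences were 1.25 (SE 0.44, adjusted p = 0.0386) in the olfactory bulb, 2.65 (SE 0.44, adjusted p = 3.52e-06) in the cortex and 2.04 (SE 0.44, adjusted p = 0.00024) in the hippocampus.

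Msmo1, the methylsterol oxidase gene, had 130.4 to 213 (median 159) RPM in cortical GFP and 7.19 to 55.8 (median 25.6) in cortical mCh libraries, and 101 to 199.96 (median 124) and 10.8 to 47.1 (median 20.7) in the hippocampus. In neither region did the sorts overlap, and the differences were 2.83 (SE 0.407, adjusted p = 2.26e-07) and 2.54 (SE 0.407, adjusted p = 2.29e-06). In the olfactory bulb Msmo1 had 28.2 to 76.6 (median 52.1) RPM in GFP and 16.9 to 50.1 (median 33.0) in mCh libraries and did not pass, at 0.70 (SE 0.407, adjusted p = 0.261). Sqle, the squalene epoxidase gene, was called in cortex (log2 2.64, SE 0.445, adjusted p = 4.71e-06) and hippocampus (log2 1.27, SE 0.445, adjusted p = 0.0235). Its GFP libraries had 39.43 to 225 (median 125) RPM in cortex, against 4.39 to 66.4 (median 19.3) in mCh, and 121 to 178 (median 139) in hippocampus, against 21.3 to 219 (median 44.0) in mCh. The sterol dehydrogenase gene Nsdhl and the sterol reductase gene Tm7sf2 were also called in cortex and hippocampus, with log2 differences of 1.94 to 2.96. Lss, Hsd17b7 and Dhcr7, which encode lanosterol synthase and enzymes of later steps, were called in cortex alone, at 1.90, 2.58 and 2.72. Ebp, the sterol isomerase gene, was called nowhere, with log2 differences of -1.67 to -0.84. Its levels were 0 to 8.52 RPM in GFP libraries and 0 to 118 RPM in mCh libraries. The 118 RPM was 27 reads in CX mCh Gq-CNO 3, a library of 228048 reads. The other mCh libraries had at most 26.5 RPM. Tm7sf2 shares 532 exon bases with Vps51 on the same strand, so its reads cannot be told apart from that neighbour's by position.

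Among the regulators, Insig1 was higher in the GFP sort in all 3 regions with no overlap of libraries. It had 92.6 to 171 (median 107) RPM in olfactory bulb GFP libraries, against 21.1 to 77.6 (median 41.6) in mCh. The cortex had 166 to 305 (median 220.3) in GFP and 10.1 to 57.5 (median 41.3) in mCh libraries, and the hippocampus 89.2 to 259 (median 195) and 13.3 to 63.0 (median 33.1). The log2 differences were 1.44 (SE 0.363, adjusted p = 0.00266) in the olfactory bulb, 2.76 (SE 0.363, adjusted p = 3.01e-08) in the cortex and 2.49 (SE 0.363, adjusted p = 3.57e-07) in the hippocampus. Srebf1, which encodes the SREBP most tied to fatty acid genes, was called in cortex (log2 2.48, SE 0.536, adjusted p = 0.000217) and hippocampus (log2 2.63, SE 0.536, adjusted p = 0.000114). Its hippocampal libraries had 74.8 to 113 (median 99.6) RPM in GFP and 3.05 to 40.5 (median 19.96) in mCh, without overlap. In cortex the GFP maximum of 605 RPM for Srebf1 was again the library rich in microglia markers, and its call held without that library. Srebf2 had 60.0 to 117 (median 83.6) RPM in olfactory bulb GFP libraries and 48.7 to 162 (median 78.4) in mCh, a difference of -0.057 (SE 0.385, adjusted p = 0.95). It was called in cortex only, at 1.06 (SE 0.385, adjusted p = 0.0262), and that call ended without the libraries under 1000000 reads (0.37, adjusted p = 0.462). Stard4, a carrier of sterols between membranes, was called in cortex and hippocampus at 2.38 and 2.45, from 4.67 to 109.7 RPM in GFP libraries and 0 to 13.3 RPM in mCh libraries of these regions.

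Apoe and Clu gave the clearest sort differences among the lipoprotein genes. Apoe (ENSMUSG00000002985.16, chromosome 7, 19696109 to 19699188, minus strand of mm10) had 3733 to 4650.2 (median 4331) RPM in olfactory bulb GFP libraries, against 1103 to 2878 (median 2052) in mCh. In cortex it had 1870.0 to 3373 (median 3109) in GFP and 345 to 509 (median 386) in mCh libraries, and in hippocampus 2497 to 3369.7 (median 3106) and 254 to 577 (median 445). No region showed overlap, and the log2 differences were 1.14 (SE 0.159, adjusted p = 3.16e-07) in the olfactory bulb, 2.77 (SE 0.159, adjusted p = 1.35e-18) in the cortex and 2.82 (SE 0.159, adjusted p = 1.11e-18) in the hippocampus. Clu (ENSMUSG00000022037.15, chromosome 14, 65968483 to 65981547, plus strand of mm10) had 1304 to 1696 (median 1429) RPM in olfactory bulb GFP libraries and 188 to 978 (median 587) in mCh. The cortical libraries had 2309.8 to 4984 (median 3676) in GFP and 237 to 697 (median 424) in mCh, and the hippocampal ones 3076 to 4730.1 (median 4084) and 263 to 487 (median 435). The groups stood apart in every region, with log2 differences of 1.49 (SE 0.224, adjusted p = 1.3e-06) in the olfactory bulb, 3.08 (SE 0.224, adjusted p = 3.04e-15) in the cortex and 3.31 (SE 0.224, adjusted p = 3.31e-16) in the hippocampus.

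Lcat was called in cortex (log2 4.48, SE 0.587, adjusted p = 2.89e-08) and hippocampus (log2 3.53, SE 0.587, adjusted p = 4.38e-06). It had 34.0 to 191 (median 117) RPM in cortical GFP and 0 to 37.2 (median 3.58) in cortical mCh libraries, whereas the olfactory bulb had 170.0 to 262 (median 225) in GFP and 29.6 to 185 (median 116) in mCh libraries, a difference of 1.08 (SE 0.587, adjusted p = 0.223). Abcg1, which exports cholesterol to lipoproteins, was the member called lower in the GFP sort, in all 3 regions. Abcg1 (ENSMUSG00000024030.7, chromosome 17, 31057675 to 31117988, plus strand of mm10) had 0.236 to 20.7 (median 4.37) RPM in olfactory bulb GFP libraries, against 27.9 to 114 (median 53.5) in mCh. It had 0.344 to 20.4 (median 3.00) RPM in cortical GFP and 4.39 to 149.6 (median 80.0) in mCh libraries, with overlap at 1 mCh library, and 0 to 7.60 (median 0.901) and 31.9 to 91.5 (median 59.1) in the hippocampus. The log2 differences of Abcg1 were -3.32 (SE 0.679, adjusted p = 0.000231) in the olfactory bulb, -3.59 (SE 0.679, adjusted p = 3.22e-05) in the cortex and -4.58 (SE 0.679, adjusted p = 4.96e-07) in the hippocampus. The other exporter gene, Abca1 (ENSMUSG00000015243.4, chromosome 4, 53030787 to 53159895, minus strand of mm10), was called in no region, with log2 differences of -0.51 to 0.29 and standard errors of 0.322. Its olfactory bulb libraries had 162 to 260.1 (median 201) RPM in GFP and 199 to 456 (median 290.3) in mCh. Hippocampal libraries had 136 to 226 (median 166) RPM in GFP and 89.2 to 521 (median 208) in mCh. Its cortical GFP maximum of 980 RPM came from the library rich in microglia markers, the other 5 lying between 171 and 418 RPM. The receptor gene Lrp1 had 772 to 1076 (median 1010.2) RPM in olfactory bulb GFP and 595 to 1005 (median 937) in mCh libraries, and Cyp46a1, the neuronal cholesterol 24-hydroxylase gene, 5.08 to 25.7 (median 14.8) and 6.63 to 26.1 (median 12.1). Neither was called in any region; their log2 differences were -0.38 to 0.15 for Lrp1 and 0.092 to 0.65 for Cyp46a1.

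**Figure D2:**
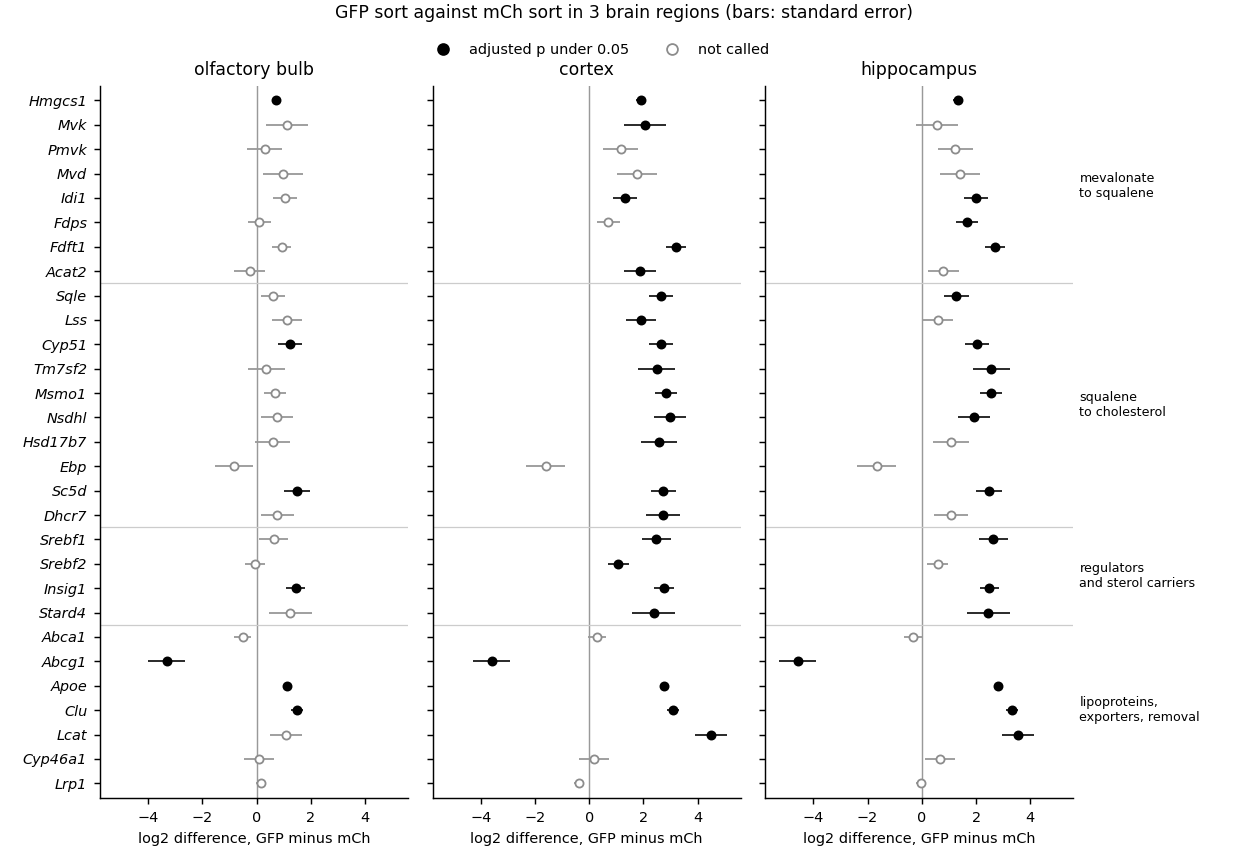
Log2 difference of the GFP sort over the mCh sort (horizontal axis, bars are standard errors) for the 29 genes in olfactory bulb, cortex and hippocampus, from 12 libraries a region, with filled points at an adjusted p under 0.05. The filled points number 7, 22 and 17, and Abcg1 is the filled point left of 0 in each panel.

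In the olfactory bulb 7 of the 29 members were called between sorts, 6 higher and 1 lower in GFP, where 18.8% of all tested genes were called. In the cortex 22 were called, 21 higher and 1 lower, against 36.9%, and in the hippocampus 17, of which 16 were higher and 1 lower, against 32.0%. The median log2 difference of the members was 0.73 in the olfactory bulb, 2.38 in the cortex and 1.42 in the hippocampus, beside -0.0042, -0.082 and -0.11 for all tested genes. Of the 18 synthesis enzymes, 3 were called in the olfactory bulb, 14 in the cortex and 10 in the hippocampus, all higher in GFP. By gene, 7 members were called in all 3 regions (Hmgcs1, Cyp51, Sc5d, Insig1, Apoe, Clu and Abcg1), 9 in 2, 7 in 1 and 6 in none. The sorts lie in different tables, so sort and table cannot be told apart, and the part of the marker sums given above in these differences was not tested. Without the cortical GFP library rich in microglia markers 24 members were called in cortex, with Mvd and Pmvk added, and without the 3 libraries under 1000000 reads 19. In the olfactory bulb the call of Cyp51 ended when 1 library was left out, without OB GFP Gq-CNO 1, 2 or 3, OB GFP Gq-Saline 2 or 3, OB mCh Gq-CNO 1 or 2 or OB mCh Gq-Saline 1 or 2 (adjusted p 0.0526 to 0.117), and that of Sc5d without OB GFP Gq-CNO 2, OB mCh Gq-CNO 1 or OB mCh Gq-Saline 1 (adjusted p 0.0549 to 0.079). In cortex the call of Mvk ended without CX GFP Gq-CNO 1 or 2, CX GFP Gq-Saline 2, CX mCh Gq-CNO 1 or 2 or CX mCh Gq-Saline 1 or 2 (adjusted p 0.056 to 0.132). That of Srebf2 ended without CX GFP Gq-CNO 2, CX GFP Gq-Saline 1, CX mCh Gq-CNO 3 or CX mCh Gq-Saline 1 (adjusted p 0.0521 to 0.185), that of Idi1 without CX GFP Gq-Saline 1 or 2 (adjusted p 0.0803 to 0.0931), that of Acat2 without CX mCh Gq-CNO 2 (adjusted p = 0.0705) and that of Stard4 without CX mCh Gq-Saline 1 (adjusted p = 0.0647). In hippocampus the call of Sqle ended without HP GFP Gq-Saline 2, HP mCh Gq-CNO 2 or HP mCh Gq-Saline 2 (adjusted p 0.0569 to 0.0989) and that of Stard4 without HP GFP Gq-CNO 4, HP mCh Gq-CNO 3 or HP mCh Gq-Saline 3 (adjusted p 0.0511 to 0.0604).

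Other genes around the pathway were counted in the same fits, where 18.8%, 36.9% and 32.0% of all tested genes were called in olfactory bulb, cortex and hippocampus. Of 15 fatty acid synthesis genes, all tested, 8 were higher in the GFP sort in the olfactory bulb, 10 in the cortex and 10 in the hippocampus, and each gene called was higher. Scd2, a stearoyl-CoA desaturase gene, differed by 1.66, 2.58 and 2.34 on the log2 scale in olfactory bulb, cortex and hippocampus, and Fads1, a fatty acid desaturase gene, by 2.25, 2.79 and 2.51. Of 9 genes that control SREBP, 1, 3 and 2 were higher and 0, 2 and 1 lower in these regions. Among 18 tested genes of sterol transport and oxysterols, 1, 3 and 3 were higher and 2, 2 and 3 lower; Npc2, a lysosomal sterol carrier gene, and the lipoprotein lipase gene Lpl were lower in the olfactory bulb, with log2 differences of -0.71 and -3.18. Of 7 tested helper enzymes of the sterol branch, 1, 2 and 2 were higher and 0, 2 and 0 lower.

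A further pair of sorts from the olfactory bulb, GFP cells of CNO-control mice and mCh cells of flox controls, gave 8 of 25 tested members called, 7 higher and 1 lower in GFP, where 32.5% of 10584 tested genes were called. Genotype, treatment, table and sort cannot be told apart here. Clu had 815, 779.6 and 687 RPM in the GFP libraries, against 51.2, 158 and 68.2 in the mCh libraries, a log2 difference of 3.19 (SE 0.338, adjusted p = 5.45e-05) by limma. Lcat had 171, 169 and 131 RPM in GFP, against 8.26, 40.2 and 20.4 in mCh (log2 2.96, SE 0.442, adjusted p = 0.00049), and Sc5d 103, 117 and 89.2, against 42.0, 51.4 and 26.9 (log2 1.38, SE 0.271, adjusted p = 0.00271). Abcg1 was lower in GFP once more, with 11.0, 8.39 and 8.11 RPM, against 91.2, 67.7 and 90.2 in mCh (log2 -3.04, SE 0.288, adjusted p = 2.74e-05). None of these 4 overlapped between groups. Srebf1, Msmo1, Acat2 and Idi1 were also called higher, by 0.74 to 1.14, and these calls hung on single libraries. That of Srebf1 ended without OB GFP CNO-control 1 or 2 or OB mCh flox-control 1 (adjusted p 0.0512 to 0.0707), that of Msmo1 without OB GFP CNO-control 1 or 2 or OB mCh flox-control 1 or 2 (adjusted p 0.0521 to 0.131), that of Acat2 without OB GFP CNO-control 1 or 2 or OB mCh flox-control 1 or 3 (adjusted p 0.0634 to 0.107) and that of Idi1 without OB GFP CNO-control 2 or 3 or OB mCh flox-control 1 (adjusted p 0.106 to 0.128). Apoe, with 1574, 1489 and 1365 RPM in GFP and 898, 1355 and 1188 in mCh, was not called (log2 0.38, SE 0.197, adjusted p = 0.166).

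The size of the sort difference differed between regions for some members. Between olfactory bulb and cortex, the sort difference was smaller in the olfactory bulb for 6 genes. The log2 differences of differences were for Apoe -1.63 (SE 0.225, adjusted p = 4.89e-06), Clu -1.58 (SE 0.316, adjusted p = 0.00136), Hmgcs1 -1.17 (SE 0.246, adjusted p = 0.00261), Fdft1 -2.28 (SE 0.517, adjusted p = 0.00568), Lcat -3.40 (SE 0.83, adjusted p = 0.0113) and Msmo1 -2.13 (SE 0.575, adjusted p = 0.0257). These are 6 of 29 members, where 3.29% of all genes were called. Between olfactory bulb and hippocampus, Apoe (log2 -1.69, SE 0.225, adjusted p = 5.02e-06) and Clu (log2 -1.82, SE 0.316, adjusted p = 0.000393) were called, 2 of 29 members, against 1.63% of genes. Between cortex and hippocampus 0 members were called by limma, against 0.0598% of genes, with 2 members at an unadjusted p under 0.05 and 0 called by edgeR. The call of Msmo1 ended without OB GFP Gq-CNO 1, OB GFP Gq-Saline 1, OB mCh Gq-CNO 3, OB mCh Gq-Saline 3, CX mCh Gq-CNO 2 or CX mCh Gq-Saline 1 (adjusted p 0.0505 to 0.0627), and those of Lcat and Msmo1 without the 3 libraries under 1000000 reads (adjusted p = 0.0898 and 0.108).

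These contrasts split into what differed within each sort. Within the GFP sort, Clu was lower in the olfactory bulb, with a log2 difference of -1.31 (SE 0.224, adjusted p = 6.58e-05) from cortex and -1.47 (SE 0.224, adjusted p = 9.69e-06) from hippocampus. Hmgcs1 was lower in the olfactory bulb likewise, at -1.02 (SE 0.174, adjusted p = 6.68e-05) and -1.06 (SE 0.174, adjusted p = 3.95e-05), and Msmo1 at -1.67 (SE 0.407, adjusted p = 0.00606) and -1.35 (SE 0.407, adjusted p = 0.0462). Fdft1 was lower than in cortex (log2 -1.33, SE 0.366, adjusted p = 0.0176), and Apoe was higher (log2 0.65, SE 0.159, adjusted p = 0.00638). These are 5 of 29 members against cortex, beside 5.6% of genes, and 3 of 29 against hippocampus, beside 4.2%. All tested genes had a median log2 difference of 0.36 between olfactory bulb and cortex, and the members -0.34. Between cortex and hippocampus 0 of 29 members were called, against 0.342% of genes; limma gave 1 member at an unadjusted p under 0.05 and edgeR called 0. The GFP libraries of the olfactory bulb also had a lower astrocyte marker sum, 65226 to 74976 RPM, against 88874 to 142780.0 in cortex and 104467 to 133655 in hippocampus. Slc1a2, an astrocyte gene, was lower in the olfactory bulb too, at 30656 to 39574 RPM, against 62157 to 106339 and 71542 to 95735. The astrocyte gene Aqp4 was not, at 1809 to 2373 RPM, against 1183 to 1805 and 1221 to 1962. The median marker level had a median over libraries of 1277 RPM, against 1196 and 1161. The part of these levels was not tested. Each region of the GFP sort has its own table, so region and table cannot be told apart. The Apoe call ended without CX GFP Gq-CNO 4 (adjusted p = 0.0518), and with TMM scaling or edgeR (adjusted p = 0.0753 and 0.127). That of Fdft1 ended without OB GFP Gq-CNO 1 or 3 or CX GFP Gq-CNO 2 (adjusted p 0.0552 to 0.06), and that of Msmo1 against hippocampus without OB GFP Gq-CNO 1 or 2, OB GFP Gq-Saline 1, 2 or 3, HP GFP Gq-CNO 1, 2 or 4 or HP GFP Gq-Saline 1, 2 or 4 (adjusted p 0.0572 to 0.159).

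Within the mCh sort, whose 3 regions share 1 table, Apoe was higher in the olfactory bulb than in cortex by 2.28 (SE 0.159, adjusted p = 8.09e-15) and than in hippocampus by 2.17 (SE 0.159, adjusted p = 6.29e-14). Lcat was higher by 4.42 (SE 0.587, adjusted p = 4e-07) and 3.14 (SE 0.587, adjusted p = 0.000241). Tm7sf2 (log2 2.25, SE 0.691, adjusted p = 0.0269) and Sqle (log2 1.45, SE 0.445, adjusted p = 0.0271) were higher than in cortex, and Srebf1 (log2 1.84, SE 0.536, adjusted p = 0.0305) was higher than in hippocampus. These are 4 of 29 members against cortex, beside 10.6% of genes, and 3 of 29 against hippocampus, beside 4.82%. The olfactory bulb mCh libraries also had more astrocyte marker RNA, 9199 to 26198 RPM in sum, against 5939 to 10934 in cortex and 7419 to 12734 in hippocampus, and less microglia marker RNA, 5411 to 11217 RPM, against 11014 to 17307 and 9884 to 16896. The part of these marker differences in the gene differences was not tested. Between cortex and hippocampus 0 of 29 were called, against 0.418% of genes, with 8 members at an unadjusted p under 0.05 and 0 called by edgeR. The call of Sqle ended without OB mCh Gq-CNO 2, OB mCh Gq-Saline 1 or 3, CX mCh Gq-CNO 3 or CX mCh Gq-Saline 1 or 2 (adjusted p 0.0522 to 0.157), that of Tm7sf2 without OB mCh Gq-CNO 1 or 3, OB mCh Gq-Saline 3 or CX mCh Gq-CNO 2 or 3 (adjusted p 0.0556 to 0.112) and that of Srebf1 without OB mCh Gq-CNO 2 or 3, OB mCh Gq-Saline 2 or 3, HP mCh Gq-CNO 1 or HP mCh Gq-Saline 3 (adjusted p 0.0693 to 0.148). The Sqle call also ended with edgeR (log2 0.85, adjusted p = 0.249) and without the libraries under 1000000 reads (log2 0.71, adjusted p = 0.335). That of Tm7sf2 ended with a pseudocount of 5 RPM (log2 1.001, adjusted p = 0.0798) and without those libraries (log2 2.10, adjusted p = 0.0924), and that of Srebf1 with edgeR (adjusted p = 0.0795).

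**Figure D3:**
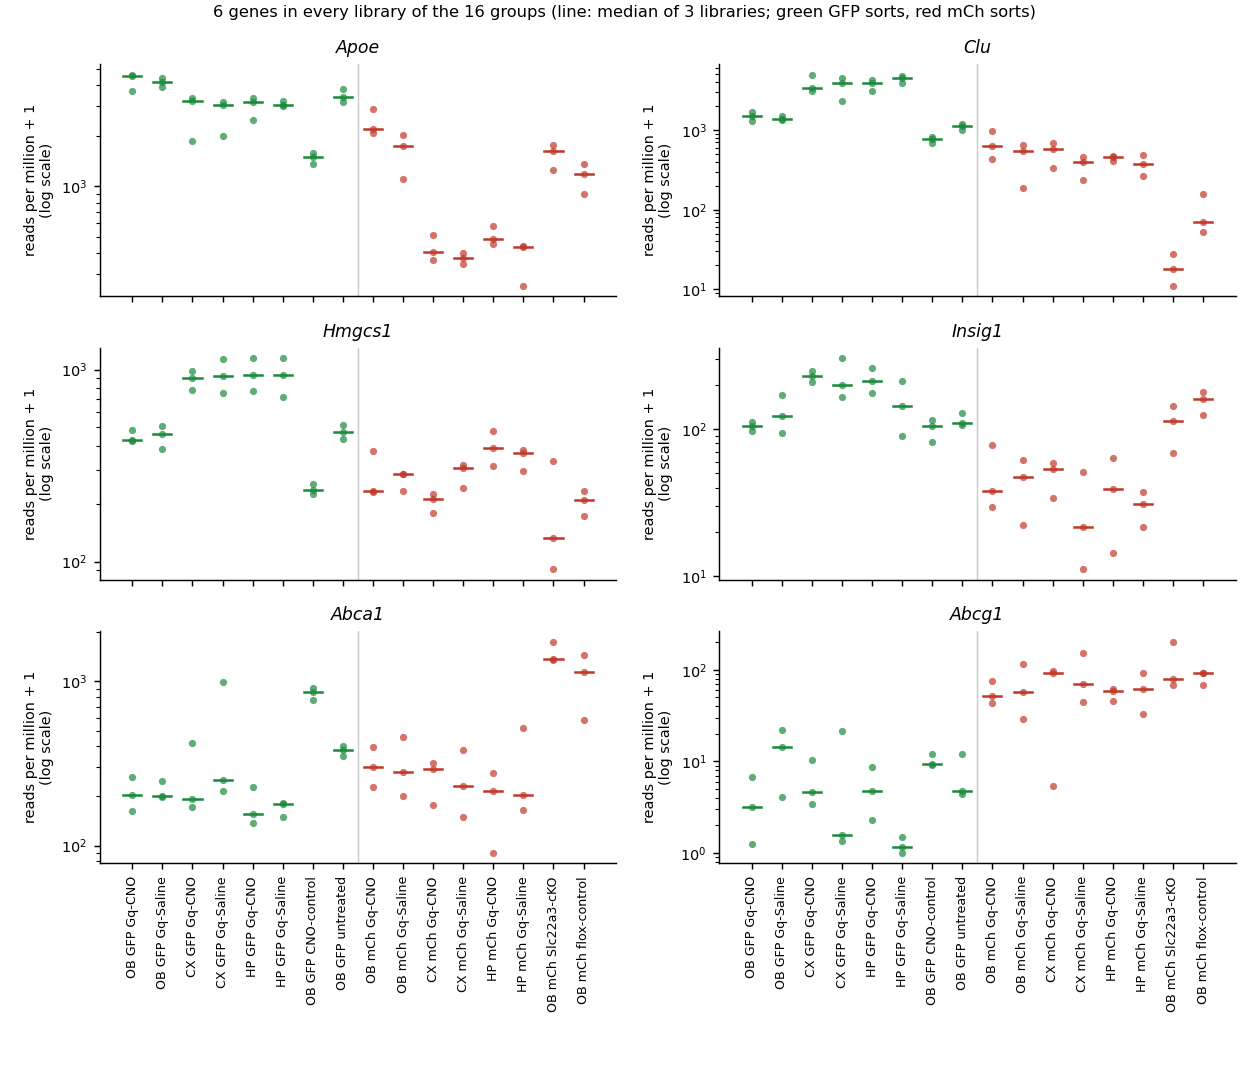
RPM plus 1 (log scale) of Apoe, Clu, Hmgcs1, Insig1, Abca1 and Abcg1 in each library of the 16 groups (points), with a line at the median of 3 libraries, GFP sorts left in green and mCh sorts right in red. Clu and Hmgcs1 are lower in olfactory bulb than in other GFP sorts of the Gq mice. Abca1 has 770 to 908 RPM in the CNO controls, 1350 to 1736 RPM in the Slc22a3-cKO group and 580 to 1430 RPM in the flox controls.

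The comparison of CNO-control with untreated mice asks what differs in olfactory bulb GFP astrocytes of mice given the ligand without the Gq label. Values are the authors' normalised reads, reads divided by a size factor of the library. Apoe, Clu, Lrp1 and 5 synthesis enzymes were lower in the CNO controls, and Abca1 was higher. Apoe had 6039, 5373 and 4930.0 normalised reads in the CNO controls, against 17907, 14513 and 13782 in the untreated mice, a log2 difference of -1.49 (SE 0.127, adjusted p = 6.03e-05) by limma. Clu had 3129, 2814 and 2481 normalised reads in the CNO controls, against 4635, 4794 and 5086 in the untreated mice, a difference of -0.79 (SE 0.125, adjusted p = 0.00185). Lrp1 had 1848, 1627 and 1776 normalised reads in the CNO controls, against 4027, 3246 and 2779 in the untreated mice (log2 -0.92, SE 0.151, adjusted p = 0.0022). Abca1 had 2956, 3107 and 3279 normalised reads in the CNO controls, against 1636, 1706 and 1652 in the untreated mice (log2 0.90, SE 0.123, adjusted p = 0.00071). These 4 genes had no overlap between the groups.

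In the synthesis pathway, Hmgcs1 had 856, 908 and 849 normalised reads in the CNO controls, against 2023, 2007 and 2230.0 in the untreated mice, a log2 difference of -1.26 (SE 0.137, adjusted p = 0.000232). Idi1 had 202, 289 and 259.7 normalised reads in the CNO controls, against 583, 625 and 849 in the untreated mice (log2 -1.45, SE 0.226, adjusted p = 0.00169), and Fdps 20.3, 26.9 and 19 normalised reads in the CNO controls, against 176, 88.9 and 105 in the untreated mice (log2 -2.38, SE 0.478, adjusted p = 0.0076). Each of these 3 mevalonate genes was lower in every CNO-control library than in every untreated library. Fdps shares 1124 exon bases with the gene model Gm43738 on the same strand, so its reads are uncertain in part. Sc5d had 397, 421 and 322 normalised reads in the CNO controls, against 589, 921 and 852 in the untreated mice (log2 -1.03, SE 0.214, adjusted p = 0.00901), and Cyp51 317, 293 and 295 normalised reads in the CNO controls, against 484, 454 and 856 in the untreated mice (log2 -0.93, SE 0.248, adjusted p = 0.03). Their groups did not overlap either. Sqle, with 389.5, 335 and 244 normalised reads in the CNO controls, against 443, 262 and 371 in the untreated mice, did overlap and was not called (log2 -0.15, SE 0.261, adjusted p = 0.76).

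Regulators were not called by limma with all libraries. Srebf1 had 617, 539 and 444 normalised reads in the CNO controls, against 204, 390.0 and 363 in the untreated mice (log2 0.78, SE 0.263, adjusted p = 0.0718), and Insig1 309.5, 414 and 378 normalised reads in the CNO controls, against 494, 548 and 473 in the untreated mice (log2 -0.47, SE 0.199, adjusted p = 0.149). Srebf2 had 167, 209 and 259 normalised reads in the CNO controls, against 302, 237 and 361 in the untreated mice (log2 -0.51, SE 0.263, adjusted p = 0.238). For Srebf1 every CNO-control library lay above every untreated library and for Insig1 below, whereas Srebf2 overlapped. Lcat (log2 0.18, SE 0.193, adjusted p = 0.581) and Cyp46a1 (log2 -0.89, SE 0.478, adjusted p = 0.254) did not pass, and Ebp was too low to be tested. In all, 9 of 28 tested members were called, 1 higher and 8 lower, where 12.2% of all tested genes were called; 12 of 28 had groups that did not overlap, against 32.9% of genes. The members' median was -0.49, beside 0.11 for all tested genes. The CNO-control libraries had more of the nuclear RNA Malat1, 23725, 34036 and 41044 RPM, against 3203, 4276 and 2545 RPM in the untreated ones, and a lower microglia marker sum, 113 to 201 against 664 to 789 RPM. Oligodendrocyte marker sums were higher in the CNO controls, 1972 to 2776 against 1061 to 1476 RPM, and so were neuron marker sums, 1080.0 to 1288 against 808 to 1063 RPM. The myelin gene Mbp went the other way, with 282, 136 and 199 RPM in the CNO controls, against 445, 304 and 366 RPM in the untreated libraries. The astrocyte marker sums were 54683 to 62473 and 65601 to 72982 RPM, and the depths 6619479 to 8577907 and 1724893 to 2964862 reads. Among astrocyte genes, Slc1a2 was lower in the CNO controls, 23429 to 29276 against 35116 to 38599 RPM. Aqp4 was higher in them, 4280 to 4531 against 3141 to 3243 RPM. The part of these differences in the gene differences was not tested. The Cyp51 call ended without CNO-control library 1, 2 or 3 or untreated library 3 (adjusted p 0.0606 to 0.106), and that of Sc5d without CNO-control library 3 (0.0544). DESeq2 on recovered reads called 12 members, with Fdft1, Srebf1 and Stard4 added. With limma, Stard4 was added by the replicate block. Cyp46a1 and Stard4 were added without untreated library 1, and Srebf1 without untreated library 2.

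**Figure D4:**
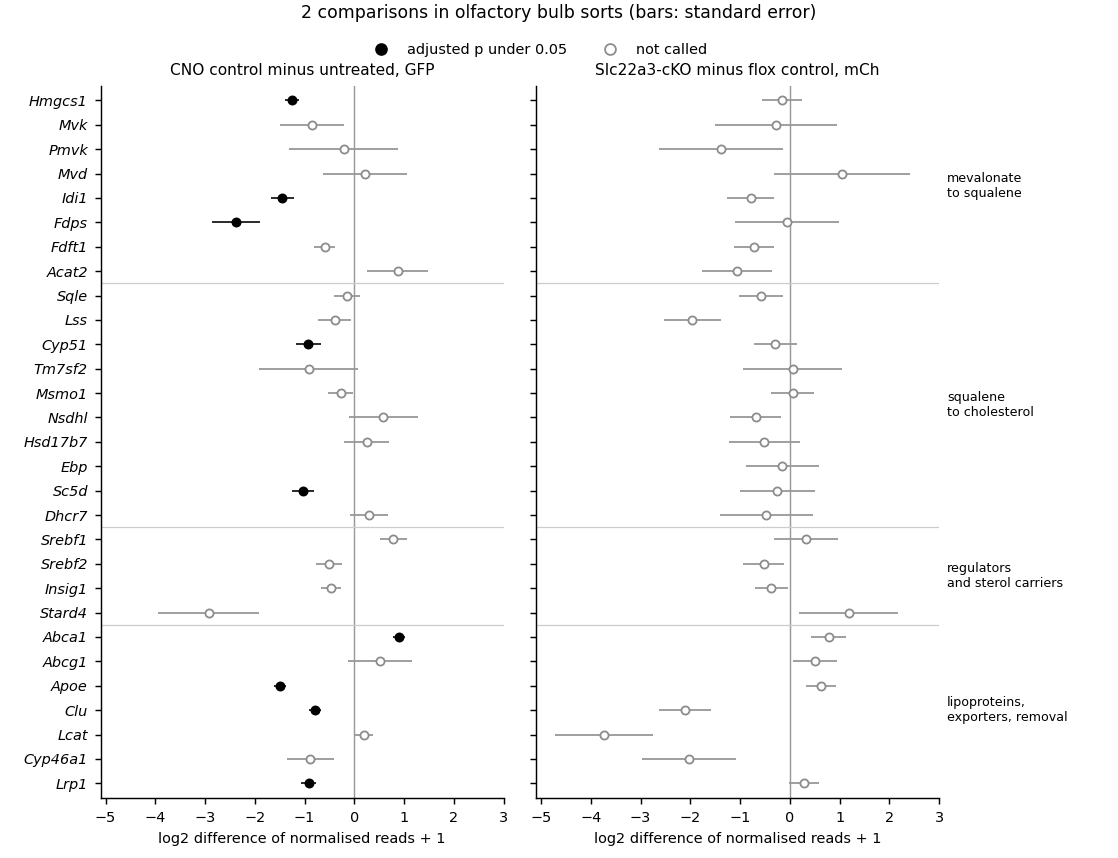
Log2 differences of normalised reads plus 1 (horizontal axis, bars are standard errors) for the members tested, CNO control minus untreated in GFP sorts (left, 28 genes) and Slc22a3-cKO minus flox control in mCh sorts (right, 29 genes), 3 libraries a group, filled at an adjusted p under 0.05. The left panel has 8 filled points below 0 and Abca1 above 0, and the right panel has none filled.

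The comparison of Slc22a3-cKO with flox controls asks what differs in olfactory bulb mCh sorts, labelled astrocytes, of mice labelled for deletion of the transporter. The targeted gene cannot check the labels, since Slc22a3 had 0, 0 and 1.601 RPM in the libraries labelled Slc22a3-cKO and 0, 0 and 0 RPM in the flox controls. None of the 29 members was called by limma, where 2.53% of all tested genes were, and 4 members had an unadjusted p under 0.05. Groups did not overlap for 4 of 29 members (Lss, Clu, Lcat and Cyp46a1, each with its cKO libraries below), against 22.7% of genes. Clu had 275, 111 and 163 normalised reads in the libraries labelled Slc22a3-cKO, against 452, 1423 and 625 in the flox controls, a log2 difference of -2.10 (SE 0.516, adjusted p = 0.0558). Lcat had 3.66, 10.7 and 38.3 normalised reads in the libraries labelled Slc22a3-cKO, against 72.8, 362 and 187 in the flox controls (log2 -3.74, SE 0.992, adjusted p = 0.0684). DESeq2 on the recovered reads called 3 members, Clu, Lcat and Lss, and edgeR 0; limma called Clu and Lcat without the cKO library 3 (adjusted p 0.0379 and 0.0153). Abca1 had 17909.7, 15002 and 12929 normalised reads in the libraries labelled Slc22a3-cKO, against 9949.5, 5219.6 and 13095 in the flox controls and overlapped between groups (log2 0.78, SE 0.349, adjusted p = 0.255), as did Apoe, with 16766, 19404 and 11980.1 normalised reads in the libraries labelled Slc22a3-cKO, against 7924, 12196 and 10871 in the flox controls (log2 0.63, SE 0.2998, adjusted p = 0.289). Hmgcs1 had 1363, 988 and 3202 normalised reads in the libraries labelled Slc22a3-cKO, against 1521, 2079 and 1913 in the flox controls (log2 -0.16, SE 0.403, adjusted p = 0.877). The astrocyte marker sum was 2212 to 6917 RPM in the libraries labelled Slc22a3-cKO, below the 7469 to 15229 RPM of the flox controls, and the neuron marker sum 398 to 1169.7, against 1497 to 4289.7 RPM. Microglia marker sums were 7034 to 15686 and 5401 to 11963 RPM, the lowest of the cKO libraries lying above their highest astrocyte sum. The part of these marker levels was not tested.

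Gq-CNO was set against Gq-Saline to ask what changes when mice with the Gq label receive the ligand. No member was called by limma in any of the 6 sorts. In the olfactory bulb GFP sort 0 of 29 members were called, against 0.00847% of tested genes, and 0.0% and 0.0% in the cortical and hippocampal GFP sorts. In the mCh sorts of olfactory bulb, cortex and hippocampus 0 of 29, 24 and 27 tested members were called, against 0.0%, 0.0% and 0.0% of genes. The members at an unadjusted p under 0.05 numbered 3, 0 and 2 in the GFP sorts and 3, 1 and 2 in the mCh sorts, and edgeR and DESeq2 also called 0 members in each. Apoe, Clu and Hmgcs1, the 3 leading members per kilobase over the GFP sorts together, had standard errors of 0.108 to 0.159 in the olfactory bulb GFP sort. Apoe in the olfactory bulb GFP sort had 38303, 37495 and 29522 normalised reads with Gq-CNO, against 34402, 33441 and 33559 with Gq-Saline, a difference of 0.045 (SE 0.108, adjusted p = 0.997). Clu had 12344, 13919 and 10309.7 normalised reads with Gq-CNO, against 10532, 12050.0 and 11419 with Gq-Saline (log2 0.10, SE 0.127, adjusted p = 0.996), and Hmgcs1 3527, 3952 and 3363 normalised reads with Gq-CNO, against 2986, 4016 and 3952 with Gq-Saline (log2 -0.0052, SE 0.159, adjusted p = 0.998). In these 3 genes the groups overlapped. Apoe in the hippocampal GFP sort had 29713, 32947 and 29394 normalised reads with Gq-CNO, against 29775, 29089.7 and 36736 with Gq-Saline (log2 -0.048, SE 0.165, adjusted p = 0.987), and Hmgcs1 8782, 11228 and 9065 normalised reads with Gq-CNO, against 9228, 11096 and 8218 with Gq-Saline (log2 0.029, SE 0.198, adjusted p = 0.996), with overlap. Clu there had 36299, 41302 and 36216 normalised reads with Gq-CNO, against 43529.7, 45819 and 45047 with Gq-Saline (log2 -0.24, SE 0.152, adjusted p = 0.976), and its groups did not overlap. Apoe had 5023, 5162 and 7158 normalised reads with Gq-CNO, against 2691, 4949 and 4319.8 with Gq-Saline in the olfactory bulb mCh sort (log2 0.56, SE 0.245, adjusted p = 0.9). In the hippocampal mCh sort it had 1157, 1346 and 1127 normalised reads with Gq-CNO, against 1029, 1049 and 679 with Gq-Saline (log2 0.42, SE 0.271, adjusted p = 0.99). Hmgcs1 in the cortical mCh sort had 553, 428 and 503 normalised reads with Gq-CNO, against 614, 761 and 822 with Gq-Saline (log2 -0.56, SE 0.366, adjusted p = 0.967). These 3 comparisons in mCh sorts had no overlap, the Gq-CNO libraries lying above for Apoe and below for Hmgcs1. A p that misses the threshold does not show that the groups are equal.

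The 2 members with the smallest unadjusted p in each sort are given next. In the olfactory bulb GFP sort, Sqle had 336, 670.1 and 419 normalised reads with Gq-CNO, against 678, 793 and 979 with Gq-Saline (log2 -0.83, SE 0.282, adjusted p = 0.996), and Abcg1 46.8, 18.0 and 1.87 normalised reads with Gq-CNO, against 23.8, 105 and 177 with Gq-Saline (log2 -2.50, SE 1.05, adjusted p = 0.996). The Sqle groups did not overlap, and those of Abcg1 did. In the cortical GFP sort, Idi1 had 757, 1217 and 1036 normalised reads with Gq-CNO, against 865, 1039.7 and 54.3 with Gq-Saline (log2 1.42, SE 0.913, adjusted p = 0.91), and Srebf2 349.9, 451 and 518 normalised reads with Gq-CNO, against 374, 286 and 217 with Gq-Saline (log2 0.60, SE 0.404, adjusted p = 0.91). The lowest Idi1 value is Gq-Saline library 4, the library rich in microglia markers, and without it the Idi1 difference was 0.054. In the hippocampal GFP sort, Dhcr7 had 71.0, 381 and 78.3 normalised reads with Gq-CNO, against 431, 300.03 and 547 with Gq-Saline (log2 -1.68, SE 0.745, adjusted p = 0.976), and Stard4 182, 138 and 1292 normalised reads with Gq-CNO, against 70.5, 111 and 53.4 with Gq-Saline (log2 2.08, SE 0.934, adjusted p = 0.976). The Stard4 groups did not overlap, with 1 library, Gq-CNO library 4, at 1292 above the rest.

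In the olfactory bulb mCh sort, Srebf2 had 157, 165 and 121 normalised reads with Gq-CNO, against 396, 213 and 358 with Gq-Saline (log2 -1.08, SE 0.386, adjusted p = 0.9), and Dhcr7 60.4, 85.6 and 43.3 normalised reads with Gq-CNO, against 9.73, 19.7 and 23.3 with Gq-Saline (log2 1.82, SE 0.786, adjusted p = 0.9). Neither overlapped between groups. In the cortical mCh sort, Ebp had 53.4, 31.5 and 283 normalised reads with Gq-CNO, against 0, 13.7 and 8.29 with Gq-Saline (log2 3.95, SE 1.54, adjusted p = 0.967), and Lss 145, 99.7 and 0 normalised reads with Gq-CNO, against 121, 70.6 and 173 with Gq-Saline (log2 -2.23, SE 1.31, adjusted p = 0.967). The Lss difference turned to 0.077 without Gq-CNO library 3, which had 228048 reads. In that library the Ebp value of 283 was 27 reads. In the hippocampal mCh sort, Sqle had 521, 119 and 299 normalised reads with Gq-CNO, against 81.7, 51.3 and 98.6 with Gq-Saline (log2 1.82, SE 0.54, adjusted p = 0.99), and Acat2 165, 61.2 and 91.7 normalised reads with Gq-CNO, against 9.92, 40.0 and 39.7 with Gq-Saline (log2 1.90, SE 0.791, adjusted p = 0.99). Neither of these overlapped. Groups did not overlap for 2, 0 and 4 members in the GFP sorts of olfactory bulb, cortex and hippocampus, against 9.88%, 8.89% and 8.85% of genes, and for 4 of 29, 3 of 24 and 4 of 27 in the mCh sorts, against 10.6%, 9.64% and 9.48%. The Gq-CNO effect itself differed between regions for 0 of 29 members in the GFP sort, against 0.0% of genes, and for 0 of 29 in the mCh sort, against 0.0342%, with 1 and 2 members at an unadjusted p under 0.05, and edgeR called 0 in either.

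**Figure D5:**
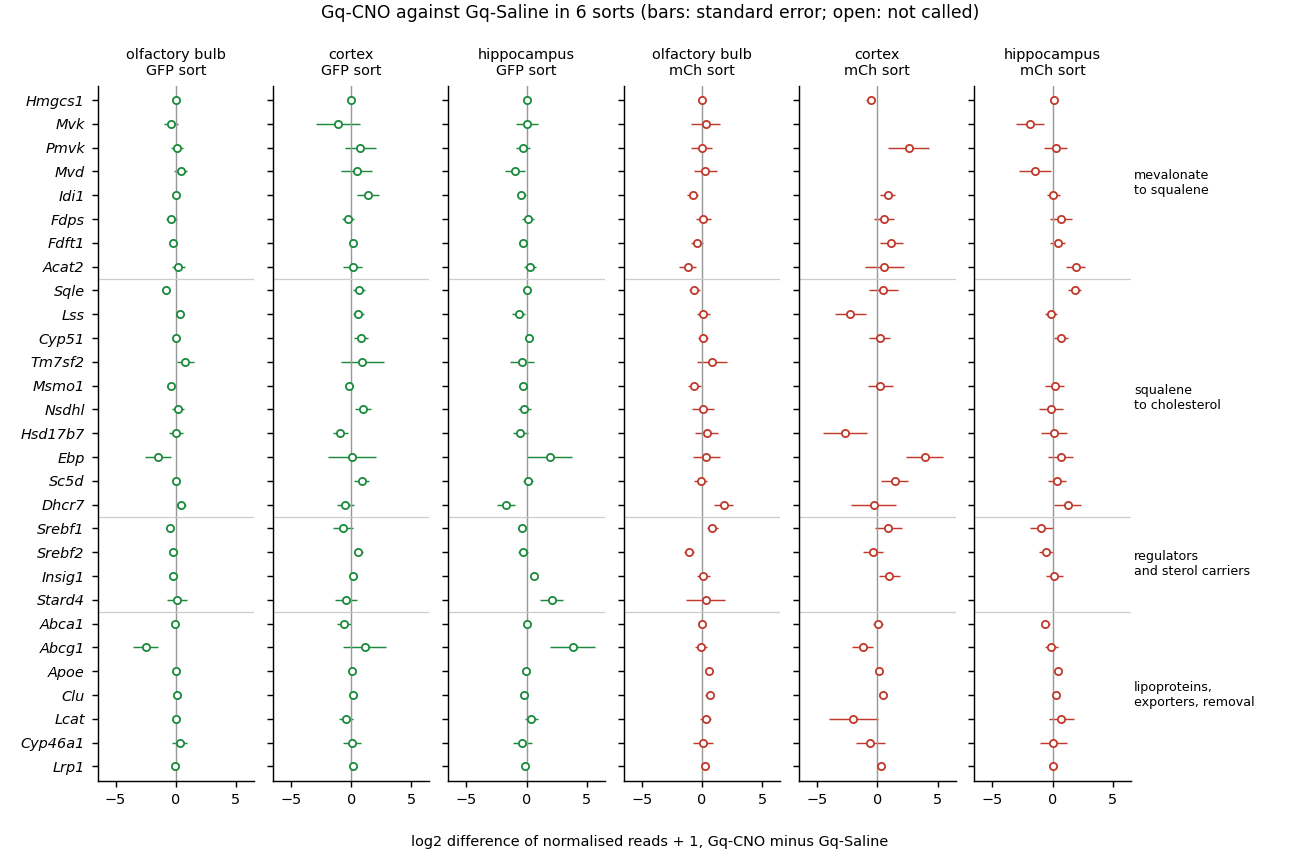
Log2 differences of normalised reads plus 1, Gq-CNO minus Gq-Saline (horizontal axes, bars are standard errors), for the members tested in 3 GFP sorts (green, left) and 3 mCh sorts (red, right), 3 libraries a group. All points are open, since 0 members were called, and the abundant genes Apoe, Clu and Hmgcs1 lie near 0 with short bars in the olfactory bulb GFP sort.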

How the data were processed

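RNA was taken from cells sorted by fluorescence, and libraries were made from 10 ng of total RNA with the Trio RNASeq System and read in pairs, per the labels' protocols. FastQC 0.11.7, MultiQC 1.11, STAR 2.5.0a, the mm10 build and DESeq2 1.30.1 are named in the submitters' processing notes, and the counter and annotation are not given in the sources used here. The authors deposited normalised reads (a signal, not counts): every value in each of the 48 columns is a whole multiple, within 0.05, of 1 read over a size factor set within each of 6 tables, so 100% of values came out whole. Recovered reads gave reads per 1000000 of the library total (RPM), and levels per kilobase used the longest protein-coding transcript of the GENCODE mm10 annotation.

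Samples were grouped by their titles, and 4 columns whose number matched no sample were assigned to a group only. No 2 replicates were identical, and all 48 replicate pairs differed beyond sampling noise. Treatment comparisons used limma 3.58.1 (R 4.3.3) with a trend on log2(value + 1), within 1 table, for genes at 10 or more in 3 or more libraries. Sorts and regions used 1 such fit on log2(RPM + 1) over 36 Gq libraries, for genes at 5 RPM or more in 6 or more libraries (3 or more for the further pair of sorts). Differences understate the change of low genes. P-values were adjusted by Benjamini-Hochberg over all tested genes and called under 0.05. Alternatives were edgeR 4.0.16 and DESeq2 1.42.0 on recovered reads, TMM scaling, other pseudocounts and filters, a replicate block, and leaving out libraries. The scripts were tested on simulated data with 200 changed genes. In the simulation of the cortical GFP comparison of Gq-CNO with Gq-Saline (9793 genes), 2.06% of genes changed by 4-fold were called, and in that of the olfactory bulb GFP sort (11804 genes) 64.3%. For genes changed by 2-fold these shares were 0.0% and 31.3%. In the other Gq-CNO comparisons 0.0% to 3.13% were called at 2-fold and 8.25% to 44.4% at 4-fold. The simulated comparison of sorts in the olfactory bulb gave 5.2% at 2-fold and 39.8% at 4-fold. That of CNO control with untreated gave 5.1% and 64.65%, and that of Slc22a3-cKO with flox control 4.12% and 39.6%. Unchanged genes called in error numbered 13 for CNO control and 5 for Slc22a3-cKO. They numbered 0 to 3 in the Gq-CNO simulations and 2 in that of the sorts.

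Members and lists were chosen with earlier results of these data known. Values by library are given for a fixed set of 10 members, members called in a treatment comparison, the 2 per role with the widest mean sort difference, and the 2 of smallest unadjusted p in comparisons without calls. Promoters came from the RefSeq table, build GRCm38.p6. Some genes are not reported here.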

Additional observations from a re-analysis of the deposited data

Results flagged for a closer look

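The difference between GFP and mCh sorts was not the same in all regions for 6 members, by the test of the difference itself. Compared with the cortex, the olfactory bulb had a smaller sort difference, with log2 differences of differences of -1.635 for Apoe, -1.58 for Clu, -2.28 for Fdft1, -1.17 for Hmgcs1, -3.40 for Lcat and -2.13 for Msmo1. Compared with the hippocampus, the values were -1.69 for Apoe and -1.82 for Clu. Apoe differed chiefly within the mCh sort, where it had 1103 to 2878 (median 2052) RPM in the olfactory bulb, 345 to 509 (median 386) in cortex and 254 to 577 (median 445) in hippocampus. Clu differed within the GFP sort, with 1304 to 1696 (median 1429), 2309.8 to 4984 (median 3676) and 3076 to 4730.1 (median 4084) RPM in the same order of regions. The astrocyte marker sum of the olfactory bulb was lower than in the other regions in the GFP sort and its median higher in the mCh sort. The median marker level of the GFP sort was not lower, at 1277 RPM, against 1196 in cortex and 1161 in hippocampus. The part of these levels in the differences was not tested. Groups of 3 libraries were not tested for outlying samples.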

How the results depend on the processing

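Of the counts of called members, most kept within 1.5 times of the value reported. The exceptions were as follows. For Slc22a3-cKO against flox control the count was 2 with a pseudocount of 10 and 3 with DESeq2, against 0 reported. The count for olfactory bulb against hippocampus in the GFP sort was 5 with the replicate block and 5 without the libraries under 1000000 reads, against 3. In the mCh sort, olfactory bulb against cortex gave 8 without Rn45s in the library total and 7 with the block, against 4, and cortex against hippocampus 2 with the block, against 0. The sort difference between olfactory bulb and hippocampus was called for 4 members with edgeR and for 4 without the libraries under 1000000 reads, against 2. Leaving out 1 library at a time gave 5 to 8 members called between sorts in olfactory bulb, 21 to 24 in cortex and 16 to 18 in hippocampus, 4 to 13 in the further pair of sorts, 7 to 11 for CNO control against untreated and 0 to 2 for Slc22a3-cKO. Within the GFP sort it gave 4 to 5 for olfactory bulb against cortex and 2 to 3 against hippocampus, and within the mCh sort 2 to 6 and 2 to 3, with 0 to 1 for cortex against hippocampus. The sort difference gave 5 to 7 against cortex and 2 to 3 against hippocampus. The other counts stayed at 0. The difference of Lss in the cortical mCh sort between Gq-CNO and Gq-Saline turned to 0.077 without Gq-CNO library 3 and lay between -3.52 and 0.077 over the libraries left out in turn. Without the libraries under 1000000 reads the cortical sort calls of Lss and Stard4 ended as well (0.97 and 1.54, adjusted p = 0.0781 and 0.195), and with edgeR that of Stard4 (adjusted p = 0.145). Without a filter on low values the calls between sorts ended for Idi1 and Mvk in cortex, Cyp51 and Sc5d in olfactory bulb and Sqle in hippocampus (adjusted p = 0.0567, 0.0614, 0.106, 0.0533 and 0.0555), and for Idi1 and Msmo1 in the further pair of sorts (0.0558 and 0.0549). So did those of Msmo1 between olfactory bulb and hippocampus in the GFP sort, of Sqle and Srebf1 in the mCh sort and of Lcat in the sort difference (0.0632, 0.0631, 0.0891 and 0.0594). The olfactory bulb call of Cyp51 and that of Msmo1 against hippocampus also ended with a pseudocount of 0.25 RPM (0.0545 and 0.062) and without Rn45s (0.0528 and 0.0583). TMM scaling moved the median of all genes between sorts to 0.14 in olfactory bulb, 0.16 in cortex and 0.074 in hippocampus, against -0.0042, -0.082 and -0.11 without it. The cause of these changes was not tested. The labels do not say whether equal replicate numbers mark a shared animal, so the block was used as an alternative setting only. Over 38 pairs within a region the correlation of deviations from the group means was -0.127 to 0.093, and 0 pairs passed 0.1. Such correlations cannot show that animals were not shared, and pairs across regions were not checked. Sorts and regions may therefore share animals, which the main fits do not model. Depth limits the low genes most, in the cortical mCh and GFP libraries of 228048, 325129 and 695264 reads.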

Other observations

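Around the members, some fatty acid genes and a few sterol transport genes were also called between CNO-control and untreated olfactory bulb astrocytes. Of 15 fatty acid synthesis genes, 2 were higher and 5 lower in the CNO controls by limma. The desaturase genes Scd2, Fads1 and Scd1 were lower, with log2 differences of -0.96, -1.26 and -0.94 (adjusted p = 0.000175, 0.00019 and 0.000371). Of 17 tested genes of sterol transport and oxysterols, 2 were higher and 1 lower, namely Apod, an apolipoprotein gene of glia (0.97), and Gramd1b, a gene of sterol transfer at membrane contacts (0.72), higher, and Npc2 (-1.23) lower. Among the SREBP control genes, Rnf139 (1.57) was higher and Erlin2 (-0.98) lower. Over all tested genes 12.2% were called in this comparison.

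Between regions, Apod was higher in the olfactory bulb than in the cortex in the GFP sort (3.86, adjusted p = 3.26e-09) and in the mCh sort (3.01, adjusted p = 4e-07). Cyp27a1, the sterol 27-hydroxylase gene, was higher there in the GFP sort (2.60, adjusted p = 0.0278). Of 15 fatty acid synthesis genes, 5 were higher in the olfactory bulb mCh sort than in the cortical one, among them Scd2 (1.21). Of all 11711 tested genes 10.6% were called there, 970 higher and 272 lower.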
